A study of Mus musculus with 12 samples.

Results

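The genes described here are the collagen genes of the mouse, taken as every gene in the count table whose symbol has the form Col, a number, a and a number. The table held 55487 genes, of which 44 were collagen genes, and 35 of these 44 had enough reads to be tested in 17301 tested genes. The study measured RNA from lymph nodes in 12 libraries, with 3 biologically independent repetitions in each of 4 groups. T stands for mice that received B16F10 cells, a mouse melanoma line, in the tongue, and NT for mice that did not. NDE stands for inhibition of the nociceptive nerves that supply the node draining the tumour, and NC for mice whose nerves were not inhibited. NT NC mice therefore had neither tumour nor inhibition, T NC mice had the tumour alone, NT NDE mice had the inhibition alone, and T NDE mice had both. The strain, age and sex of the mice, the means of inhibition and the time of sampling were not given in the sources used here, nor is it said whether a library holds 1 mouse or a pool. P-values therefore measure the spread between these libraries.

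Collagens are secreted or membrane-bound proteins built from 3 chains wound into a triple helix. Fibrillar collagens such as types I, III and V make cable-like fibrils, type IV forms the sheet of basement membranes, type VI makes beaded filaments, and FACIT collagens sit on the surface of fibrils. Multiplexins lie near basement membranes, and transmembrane collagens span the cell membrane with a collagenous part outside it. In a lymph node, fibroblastic reticular cells wrap collagen fibres into conduits that carry small molecules from the lymph to the blood vessels of the T cell area. Basement membranes there surround vessels, sinuses and the conduits themselves. In RNA from whole tissue, fewer cells of a type and less RNA per cell cannot be told apart.

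The libraries held 16862953 to 24467873 counts. Transcripts of B cells (summed level of 5 markers, 2231 to 3058 CPM, counts scaled to library size) and T cells (5 markers, 691 to 897 CPM) were present in each of the 12 libraries, as were those of fibroblastic reticular cells (9 markers, 307 to 459 CPM). Pigment cell markers summed to 2.7 CPM or less in each library. In 3 libraries salivary gland RNA stood out: Bpifa2, a salivary protein gene, reached 25420 CPM in T NDE replicate 3, 19567 in NT NC replicate 3 and 997 in NT NC replicate 2, against 6.66 to 38.1 in the other 9. Main counts and the values that moved most are therefore also given without these 3 libraries, which leaves 1 library in NT NC and 2 in T NDE. A lone NT NC library is then assumed to vary like the other groups, and its comparisons rest on that library. In each of the 7 comparisons 0 collagens passed the adjusted threshold of edgeR without them. No repetitions of a group were alike within sampling noise (chi-square per degree of freedom at least 6.30).

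Promoter windows were at hand for 35 of the 44 genes (38 windows, RefSeq, build GRCm38.p6). The 150 bases before the start site are shown, on the strand of the gene, for 3 genes on which the comparisons below turn: Col3a1, the most abundant fibrillar collagen by CPM, and Col13a1 and Col6a5, the collagens with the smallest p-values. Below them stand the bases shared by Col4a1 and Col4a2, the most abundant pair. Capitals mark the motifs TATAAA and GGGCGG, and CCAAT was also searched, each on both strands.
Col3a1, chr1:45311388-45311537, plus strand: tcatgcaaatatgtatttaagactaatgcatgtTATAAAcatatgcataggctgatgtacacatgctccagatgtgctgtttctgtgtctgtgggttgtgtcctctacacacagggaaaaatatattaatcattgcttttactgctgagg
Col13a1, chr10:61979109-61979258, minus strand: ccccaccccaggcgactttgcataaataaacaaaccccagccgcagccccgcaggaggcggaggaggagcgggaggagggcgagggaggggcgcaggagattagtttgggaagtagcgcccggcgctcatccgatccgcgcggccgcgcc
Col6a5, chr9:105960644-105960793, minus strand: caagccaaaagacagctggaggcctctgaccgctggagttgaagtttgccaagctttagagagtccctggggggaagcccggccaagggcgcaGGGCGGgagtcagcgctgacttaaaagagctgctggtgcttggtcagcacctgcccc
Overlap of Col4a1 and Col4a2, chr8:11312805-11312826, plus strand: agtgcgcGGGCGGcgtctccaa
The TATAAA of Col3a1 began 117 bases before the start site and the GGGCGG of Col6a5 57 bases before it. The Col13a1 window held none of the 3 motifs. Over the 250 bases before the start, GGGCGG was present in 57.9% of the 38 collagen windows against 32.7% of all 32851 windows. The shares were 34.2% against 33.8% for CCAAT and 13.2% against 12.4% for TATAAA. A match is a description of the letters and not a binding site.

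Levels of different genes were compared per length, as RPKM, the CPM divided by the exon length in kilobases (mean over 12 libraries). The order began with Col4a1 and Col4a2, the main chains of type IV collagen, at 31.5 and 23.3 RPKM. Col3a1, the single chain of type III collagen, followed at 22.9 RPKM, then Col6a1 at 18.9 and the chains of type I collagen, Col1a1 and Col1a2, at 17.2 and 15.3. The seventh gene, Col15a1, a multiplexin, was at 7.67 RPKM, so that a gap separated these 6 genes from the rest. With the length of the longest transcript in place of the union of exons, the order began with Col3a1, Col1a2, Col4a1 and Col4a2, so neighbours within this group of 6 hold their place only for a given gene model. Of all collagen reads, 42.7% came from the 11 fibrillar genes, 26.2% from the 6 type IV genes, 18.4% from the 6 type VI genes, 6.8% from the 9 FACIT genes, 4.2% from the 2 multiplexins and 1.1% from the 4 transmembrane collagens. Together the 44 genes made up 1485 ± 131 CPM in NT NC, 1685 ± 210 in T NC, 1521 ± 208 in NT NDE and 1309 ± 118 in T NDE (mean ± SD, n = 3 each).

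**Figure D1:**
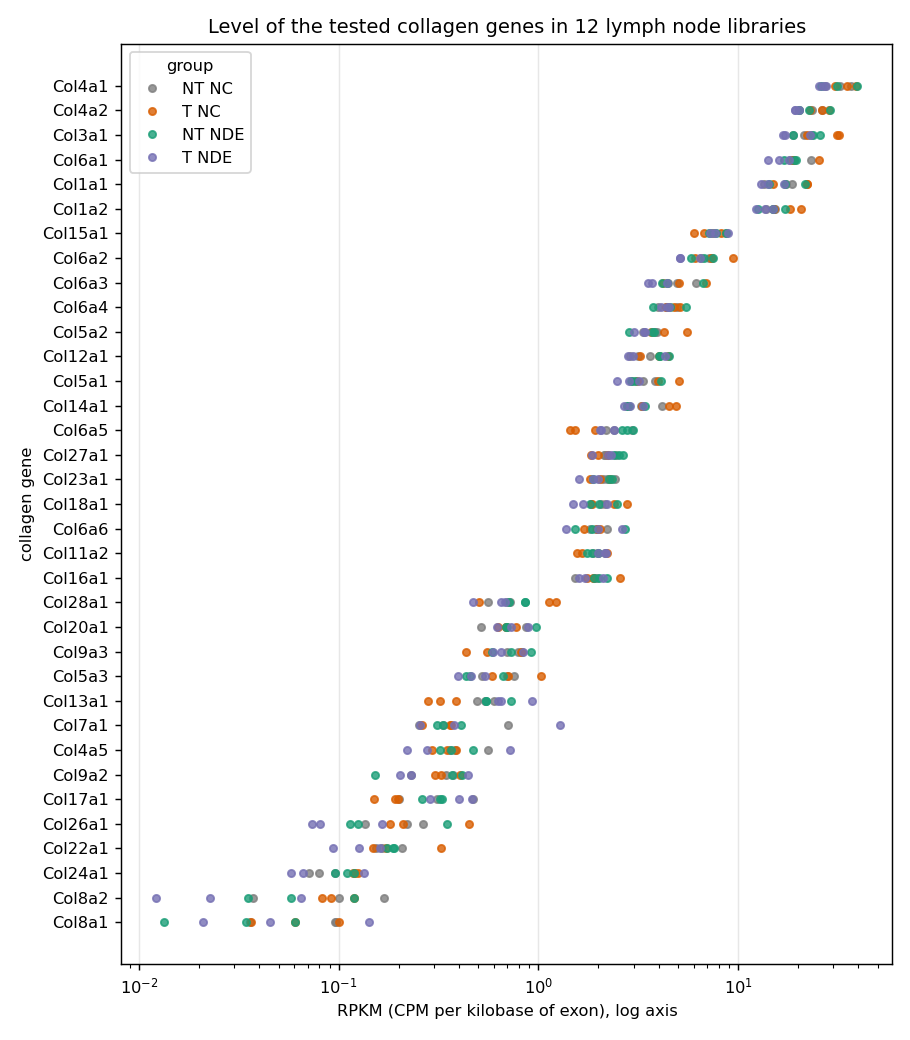
Level of the tested collagen genes per length (RPKM, log axis) in each library, coloured by group. The leading 6 genes, from Col4a1 at 31.5 to Col1a2 at 15.3 RPKM, stand above Col15a1 at 7.67 RPKM.

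At the low end, 9 collagen genes had too few reads for a test. They were the type IV genes Col4a6 (84 counts over all 12 libraries), Col4a4 (37) and Col4a3 (14). The products of Col4a4 and Col4a3 mark specialised basement membranes such as that of the kidney glomerulus. The cartilage collagens Col11a1, Col2a1 and Col9a1 had 25, 18 and 7 counts, and Acan, the main cartilage proteoglycan gene, was at 0 in each of the 12 libraries. Col25a1, a transmembrane collagen of neurons, had 49 counts, Col19a1 had 7, and Col10a1, a collagen of hypertrophic cartilage, had 2 counts, both in 1 library. A count of 0 in 1 library allows a level of up to 0.123 to 0.178 CPM (3 counts, counting error only). Most of these genes were near or below that level, while Col4a6 had counts in each library and reached 1.02 CPM.

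The main question of the design was whether inhibition of nociceptive nerves changes the node of tumour-bearing mice. In T NDE against T NC most fibrillar, type IV and classical type VI chains were lower, with log2 fold changes from -0.39 to -0.74, while the transmembrane collagens Col13a1 and Col17a1 were higher. No collagen passed the adjusted threshold of 0.05 in the edgeR quasi-likelihood test (smallest Benjamini-Hochberg adjusted p 0.316), and neither did any other gene. At an unadjusted p under 0.05, 14 collagens were lower (background 3.07% of all tested genes) and 3 were higher (background 2.75%). In all, 17 of 35 collagens (48.6%) lay under that value, against 5.83% of all tested genes. By direction alone 23 were lower and 12 higher, with a median log2 fold change of -0.39, while the median of all genes was 0.01. DESeq2, which called more genes of all kinds than edgeR (counts in the last section), called 2 collagens in this comparison, Col13a1 and Col3a1.

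The count of 14 rested in part on single libraries. It was 6 without T NC replicate 1, the library with the highest collagen level, and 9 without T NDE replicate 1, the lowest. Leaving out any other library gave 11 to 16, and leaving out the 3 libraries with salivary RNA gave 14. Leaving out the same 2 libraries in turn brought the median to -0.24 and -0.22, and it was -0.19 with no filter on low counts. The fit with no filter also held the collagens with too few reads for the main test.

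Among the fibrillar collagens, 7 of 9 tested genes had lower values under inhibition (T NDE against T NC), 5 of them at an unadjusted p under 0.05. Col3a1 (ENSMUSG00000026043, mm10 chr1:45311538-45349706) was measured at 308, 219 and 316 CPM in T NC and at 168, 165 and 224 in T NDE. The control values were 229, 210 and 185 CPM in NT NC and 184, 232 and 252 in NT NDE. Col3a1 was thus highest in 2 T NC libraries, and T NC replicate 2 fell among the values of T NDE. Its log2 fold change in T NDE against T NC was -0.59 ± 0.17 (SE, n = 3 against 3; unadjusted p = 0.00666, Benjamini-Hochberg adjusted p = 0.713, edgeR), and DESeq2 gave an adjusted p of 0.0344. Col1a2, the α2 chain of type I collagen, was at 258, 188 and 225 CPM in T NC and 153, 170 and 186 in T NDE. These groups did not overlap, though their nearest libraries lay close together, and the log2 fold change was -0.40 ± 0.13 (SE). The partner chain Col1a1 was at 145, 98.8 and 145 CPM in T NC and 85.3, 93.1 and 111 in T NDE. Its groups overlapped, with a log2 fold change of -0.43 ± 0.20 and an unadjusted p of 0.0651.

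Type V collagen, which nucleates fibrils of type I, was lower in each of its 3 chains. The log2 fold changes in T NDE against T NC were -0.51 ± 0.18 for Col5a1, -0.46 ± 0.14 for Col5a2 and -0.74 ± 0.25 for Col5a3 (SE), all at an unadjusted p under 0.05. Col5a3, a low-level chain, was at 7.04, 3.97 and 4.80 CPM in T NC and 3.13, 2.69 and 3.67 in T NDE, without overlap. T NC replicate 1 was the highest library for each of these 3 genes, and without it the log2 fold changes were -0.31, -0.28 and -0.47. Col27a1 and Col11a2, fibrillar chains best known from cartilage, were the 2 tested fibrillar genes that were not lower. Col27a1 stood at 26.3 ± 2.65 CPM in T NC and 27.7 ± 3.19 in T NDE, and Col11a2 at 12.4 ± 2.38 and 14.5 ± 0.743 (mean ± SD, n = 3). The summed fibrillar level was 757 ± 124 CPM in T NC and 554 ± 67.7 in T NDE.

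**Figure D2:**
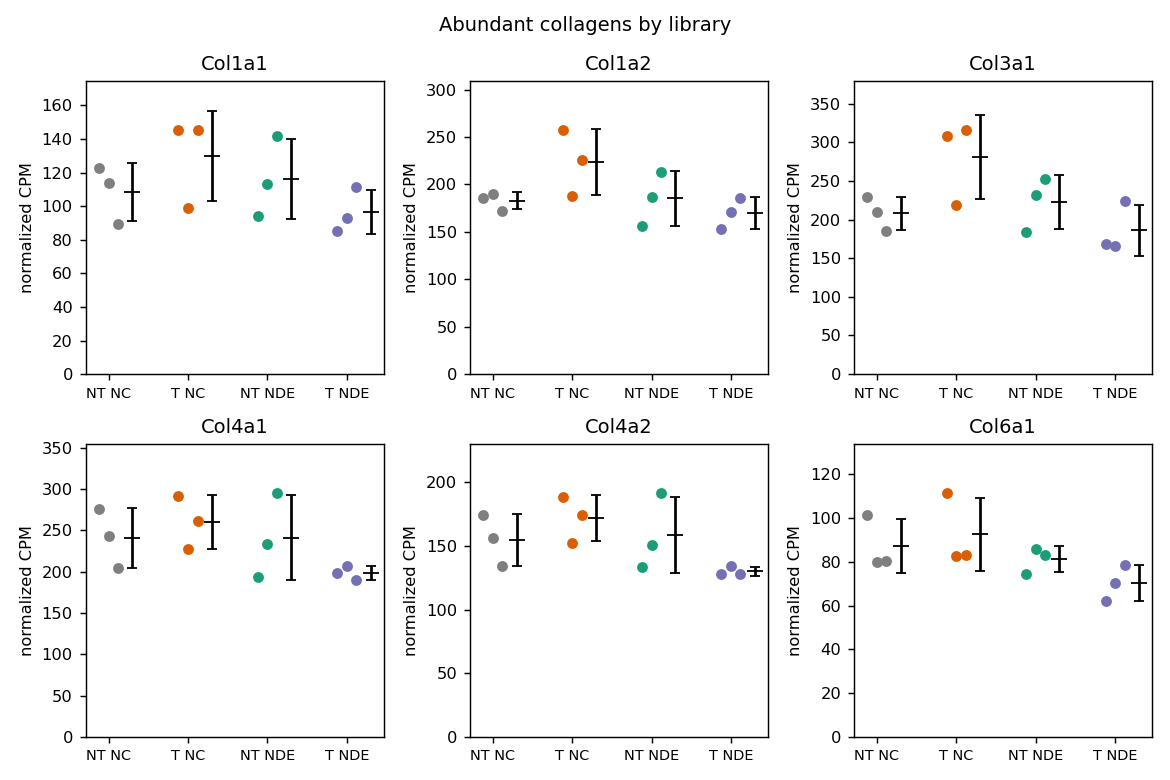
Normalized CPM of the abundant collagen genes in each library, by group, with the mean and SD (n = 3). The T NDE libraries of Col4a1 lie between 190 and 207 CPM, below each of the T NC libraries.

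The main chains of type IV collagen, Col4a1 and Col4a2, had T NDE libraries close to each other. Col4a1 (ENSMUSG00000031502, mm10 chr8:11198423-11312826) was at 199, 207 and 190 CPM in T NDE against 292, 227 and 262 in T NC. NT NC libraries had 276, 243 and 204 CPM and NT NDE libraries 194, 234 and 296, so both tumour-free groups spanned the gap. T NDE lay below T NC without overlap, and its SD of 8.57 CPM was the smallest of the 4 groups. Col4a2 (ENSMUSG00000031503, mm10 chr8:11312805-11449287) was at 128, 134 and 128 CPM in T NDE and 189, 153 and 175 in T NC. The log2 fold changes were -0.39 ± 0.15 and -0.40 ± 0.13 (SE, n = 3 against 3), with unadjusted p-values of 0.0259 and 0.00917 and Benjamini-Hochberg adjusted p-values of 0.834 and 0.752 in the edgeR fit.

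Col4a1 and Col4a2 lie head to head on opposite strands and share the 22 bases printed above. Their ratio per length was nearly constant, from 1.29 to 1.41 over the 12 libraries. The coefficient of variation of this ratio was 2.57%, against 2.36% from counting error alone. The ratio of Col1a1 to Col1a2, which lie on different chromosomes, ran from 0.98 to 1.25. Its coefficient of variation was 8.42% against a counting error of 2.71%. For Col6a1 to Col6a2, neighbours on chromosome 10, the values were 7.71% and 3.95%. Whether position bears on these ratios was not tested. Because the strand setting of the counts is not known, reads from the shared bases cannot be assigned to 1 gene. Of the other head-to-head pairs, Col4a4 and Col4a3 start 71 bases apart and had too few reads for a ratio. Col4a5, a minor type IV chain, was at 1.96, 2.36 and 2.61 CPM in T NC and 1.87, 1.47 and 4.83 in T NDE, where the high library was the one with salivary RNA. Col4a6, its neighbour 1308 bases away, was likewise highest in that library, at 1.02 CPM.

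Type VI collagen was divided by chain. The classical chains Col6a1, Col6a2 and Col6a3 had log2 fold changes of -0.39 ± 0.13, -0.46 ± 0.15 and -0.47 ± 0.23 (SE) in T NDE against T NC. The unadjusted p was under 0.05 for the first 2 and 0.0700 for Col6a3. Col6a1 was at 112, 82.7 and 83.1 CPM in T NC and 62.3, 70.4 and 78.6 in T NDE, 2 groups that did not overlap. Col6a2 (78.9, 50.7 and 61.2 against 42.5, 42.8 and 53.7 CPM) and Col6a3 (82.3, 50.3 and 60.6 against 44.4, 42.4 and 52.9 CPM) overlapped by 1 library. T NC replicate 1 was again the highest library for these 3 genes, and without it their log2 fold changes were -0.24, -0.27 and -0.25.

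The alternative α3-like chains Col6a4, Col6a5 and Col6a6 sit in 1 cluster on chromosome 9, on the same strand, with gaps of 28810 and 27917 bases. Col6a4 was at 40.9, 43.9 and 37.4 CPM in T NC and 37.4, 35.0 and 38.6 in T NDE. Col6a6 was at 18.6, 15.5 and 17.9 CPM in T NC and 12.6, 18.3 and 24.1 in T NDE, and both genes overlapped between the groups. Col6a5 (ENSMUSG00000091345, mm10 chr9:105856078-105960643) had the opposite sign to the classical chains. It was at 13.6, 18.2 and 14.4 CPM in T NC and 19.3, 19.3 and 22.4 in T NDE, with no overlap and a log2 fold change of 0.40 ± 0.13 (SE, unadjusted p = 0.00813, adjusted p = 0.744 in the edgeR fit with Benjamini-Hochberg adjustment).

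**Figure D3:**
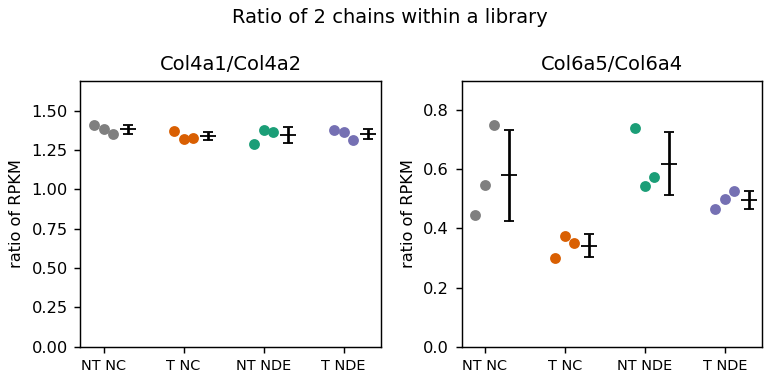
Ratios of collagen chains per length in each library, by group. Col4a1 to Col4a2 stays between 1.29 and 1.41, while Col6a5 to Col6a4 is 0.30 to 0.38 in T NC and 0.45 to 0.75 in the other 9 libraries.

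Of the transmembrane collagens, Col13a1 and Col17a1 had the largest increases among collagens at an unadjusted p under 0.05. Col13a1 (ENSMUSG00000058806, mm10 chr10:61838236-61979108), found at cell adhesions and at the neuromuscular junction, was at 1.47, 1.29 and 1.78 CPM in T NC and 2.91, 2.99 and 4.30 in T NDE. The groups did not overlap, and the log2 fold change was 1.17 ± 0.24 (SE, n = 3 against 3; unadjusted p = 0.000216, Benjamini-Hochberg adjusted p = 0.316, edgeR). DESeq2 gave 1.18 ± 0.28 with an adjusted p of 0.0226. Without the salivary libraries the edgeR value was 0.97 ± 0.27 with an adjusted p of 0.624. The gene had 609 counts over all 12 libraries, or 0.56 RPKM, so these are differences at a low level.

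Col17a1 (ENSMUSG00000025064, mm10 chr19:47646344-47692094), a component of the hemidesmosomes that anchor epithelia, was at 0.900, 1.15 and 1.18 CPM in T NC and 2.41, 1.72 and 2.80 in T NDE. The log2 fold change was 1.10 ± 0.32 (SE, unadjusted p = 0.00352, adjusted p = 0.705 in the same edgeR fit), again without overlap. Without the salivary libraries it was 0.94 ± 0.30. Col23a1, the most abundant transmembrane collagen, was at 10.3, 11.7 and 13.1 CPM in T NC and 9.16, 11.4 and 10.8 in T NDE and overlapped.

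**Figure D4:**
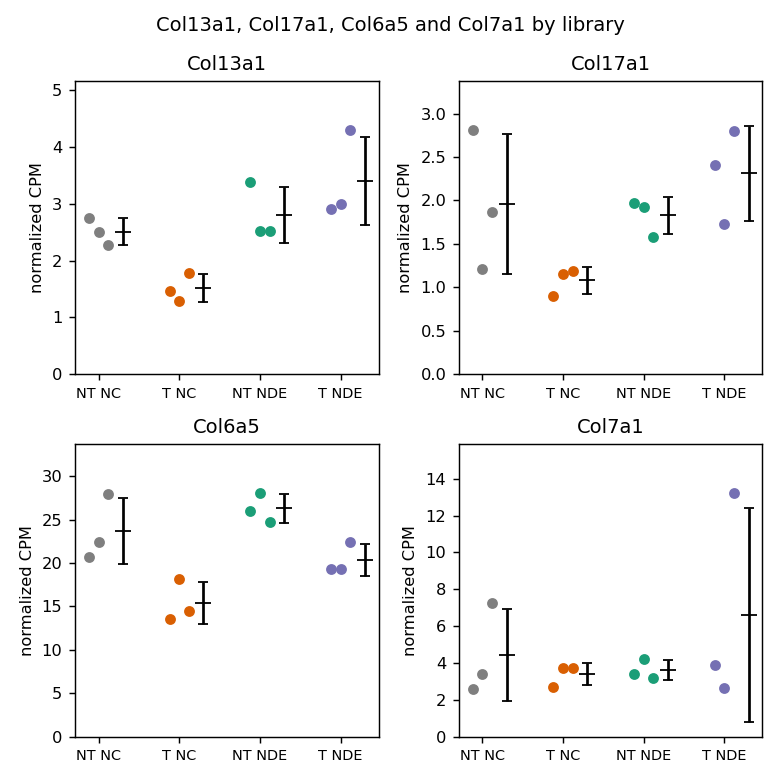
Normalized CPM of Col13a1, Col17a1, Col6a5 and Col7a1 in each library, by group, with the mean and SD (n = 3). For the first 3 genes the T NC libraries are the lowest of all, and Col7a1 is high in T NDE replicate 3 at 13.2 CPM and NT NC replicate 3 at 7.27 CPM.

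FACIT collagens were mixed in T NDE against T NC, with 5 of 7 tested genes lower. Col14a1, which binds fibrils of type I, had a log2 fold change of -0.52 ± 0.16 and Col22a1, a collagen of tissue junctions, of -0.77 ± 0.32 (SE), both at an unadjusted p under 0.05. The value of Col22a1 rested on T NC replicate 2 at 3.00 CPM and was -0.35 without it. Col12a1, the most abundant FACIT gene, was at 61.3, 67.9 and 49.2 CPM in T NC and 42.7, 45.4 and 65.9 in T NDE. The groups overlapped through T NDE replicate 3, a salivary library. The log2 fold change of Col12a1 was -0.21 ± 0.16 (unadjusted p = 0.216, edgeR) with all libraries and -0.43 ± 0.11 (unadjusted p = 0.0021, Benjamini-Hochberg adjusted p = 0.595) without the salivary ones, then the smallest p of a collagen in this comparison. Of the multiplexins, Col18a1, the source of endostatin, had a log2 fold change of -0.39 ± 0.17 (unadjusted p = 0.0403, adjusted p = 0.851, edgeR with Benjamini-Hochberg) and was -0.24 without T NC replicate 1. Col15a1 was at 38.2, 42.7 and 52.3 CPM in T NC and 45.9, 48.9 and 56.4 in T NDE, with little difference between groups against its spread.

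The remaining genes were low. Col28a1 had a log2 fold change of -0.68 ± 0.28 and Col26a1 of -1.39 ± 0.51 (SE). Col26a1 was at 3.68, 1.48 and 1.72 CPM in T NC and 0.603, 0.659 and 1.35 in T NDE, and its value without T NC replicate 1 was -0.86. The short chain genes Col8a1 and Col8a2, whose products form lattices in the cornea and in vessel walls, were at 1.11 CPM or less in each library. Col7a1, which makes the anchoring fibrils of skin and oral mucosa, was at 3.89, 2.64 and 13.2 CPM in T NDE and at 2.59, 3.42 and 7.27 in NT NC. Its 2 high libraries had salivary RNA and also the highest summed keratinocyte markers, 19.1 and 12.4 CPM against at most 3.3 in the other libraries; the part of such tissue in the Col7a1 level was not tested. In the 6 libraries of T NC and NT NDE, Col7a1 lay between 2.70 and 4.24 CPM.

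Across the family, 8 collagens lay lower in each T NDE library than in each T NC library (background 4.6%) and 3 lay higher (background 4.55%). The 8 were Col1a2, Col5a2, Col5a3, Col4a1, Col4a2, Col6a1, Col8a2 and Col26a1, and the 3 were Col13a1, Col17a1 and Col6a5. Without the salivary libraries, which leaves 2 libraries in T NDE, 18 were lower (background for these libraries 10.7%) and 3 higher (background 10.1%). In that fit Col12a1, Col8a2 and Col24a1 joined the genes lower at an unadjusted p under 0.05, with log2 fold changes of -0.43, -2.36 and -0.95, and Col4a1, Col22a1 and Col28a1 left them.

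Marker genes of cells that make collagen were compared between the same groups. Summed markers of fibroblastic reticular cells ran from 369 to 437 CPM in T NC and from 307 to 447 in T NDE, with 6 of 9 genes lower. Pericyte and smooth muscle markers ran from 389 to 487 CPM in T NC and from 420 to 493 in T NDE, and lymphatic endothelial markers from 218 to 242 and from 143 to 281. Of the blood endothelial markers 8 of 8 were higher in T NDE (964 to 1167 against 992 to 1295 CPM), and of the T cell markers 5 of 5 were lower (743 to 897 against 691 to 764 CPM). Adipocyte markers were highest in T NDE replicate 3, at 85.4 CPM. The highest T NDE values of the reticular cell and lymphatic endothelial lists were also those of this library, which had salivary RNA. The other 2 T NDE libraries had 307 and 386 CPM of reticular cell markers, and 143 and 186 CPM of lymphatic endothelial markers, the latter below each T NC library. With all libraries the ranges of each of these lists overlapped between the groups, and their part in the collagen values was not tested.

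The tumour itself, without nerve inhibition, was read from T NC against NT NC. Here the collagens leaned upward with a median log2 fold change of 0.11 (-0.01 over all genes), with 22 genes higher and 13 lower. This median was 0.02 when T NC replicate 1 was left out, 0.07 and 0.18 when NT NC replicates 3 and 1 were, and 0.06 when the salivary libraries were. No gene, collagen or other, passed the adjusted threshold in the edgeR test (smallest adjusted p of a collagen 0.348). At an unadjusted p under 0.05, 3 collagens were lower (background 3.23%) and 2 were higher (background 4.58%). DESeq2, again with more genes called in all, called 1 collagen, Col6a5. Summed markers of fibroblastic reticular cells were 369 to 437 CPM in T NC and 319 to 332 in NT NC. The sum thus also stood higher in T NC, with 6 of 9 genes higher and 3 lower. The part of these cells in the fibrillar values was not tested. This comparison and T NDE against T NC share the 3 T NC libraries.

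The 2 higher genes were fibrillar. Col3a1 had a log2 fold change of 0.43 ± 0.17 and Col1a2 of 0.29 ± 0.13 (SE), with unadjusted p-values of 0.0318 and 0.0372 and edgeR adjusted p-values of 0.616 and 0.621 (Benjamini-Hochberg). For both, T NC replicate 2 lay within the range of the NT NC libraries, and the groups overlapped. With the salivary libraries left out neither had an unadjusted p under 0.05, while Col12a1 (0.32 ± 0.15) did, and the value for Col3a1 was 0.31 ± 0.24, with 1 NT NC library left.

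The 3 lower genes were Col6a5, Col13a1 and Col17a1, and in each the 3 T NC libraries lay below the 3 NT NC libraries. Non-overlap of this kind was found for 3 collagens downward (background 7.23%) and for 1, Col24a1, upward (background 7.78%). Against the lone NT NC library without salivary RNA the counts were 9 (background 27.7%) and 7 (background 25.6%). Col6a5 was at 20.6, 22.5 and 27.9 CPM in NT NC against 13.6, 18.2 and 14.4 in T NC. Its log2 fold change was -0.62 ± 0.13 (SE, unadjusted p = 0.000279, Benjamini-Hochberg adjusted p = 0.348, edgeR), and DESeq2 gave an adjusted p of 0.0123. Leaving out the salivary libraries gave -0.41 ± 0.16, where 1 NT NC library is left and the other groups supply the spread. Col13a1 was at 2.76, 2.50 and 2.27 CPM in NT NC, with a log2 fold change of -0.73 ± 0.24. Col17a1 was at 2.81, 1.21 and 1.87 CPM there, with a log2 fold change of -0.85 ± 0.32, and its nearest libraries of the 2 groups differed by little. Leaving out the salivary libraries, which keeps 1 NT NC library, gave -1.38 ± 0.36 for Col17a1.

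For these 3 genes each T NC library was also below each of the other 9 libraries, a count looked at after the values were seen. Over all tested genes 0.497% did the same, and 0 collagens were above the other 9 libraries (background 0.451%). For Col6a5 the pattern also held relative to its neighbour in the cluster: the ratio of Col6a5 to Col6a4 per length was 0.30 to 0.38 in T NC and 0.45 to 0.75 in the other 9 libraries.

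Nerve inhibition in tumour-free mice, NT NDE against NT NC, gave a collagen median near 0 with all libraries. The median log2 fold change was 0.00, with 16 genes lower and 19 higher. Against the lone NT NC library without salivary RNA the median was -0.11, with 22 lower and 13 higher. In the edgeR test 0 collagens passed the adjusted threshold (smallest adjusted p 0.446), and DESeq2 also called 0. At an unadjusted p under 0.05, 0 collagens were lower (background 4.71%) and 1 was higher (background 5.67%). That gene was Col12a1, at 48.0, 43.8 and 54.9 CPM in NT NC and 61.5, 68.4 and 62.1 in NT NDE. The groups did not overlap upward for this 1 collagen (background 9.71%), while 0 collagens did so downward (background 9.18%). With the lone NT NC library 9 were lower (background 28.1%) and 5 higher (background 28.9%), and Col14a1 (-0.46 ± 0.19) and Col6a5 (0.35 ± 0.16) also had an unadjusted p under 0.05. For Col12a1 the log2 fold change was 0.39 ± 0.16 (SE, unadjusted p = 0.0364, adjusted p = 0.446 by edgeR). Col27a1 came next, at 32.0, 27.7 and 28.0 CPM against 34.4, 33.1 and 31.1, which overlapped. Markers of fibroblastic reticular cells summed to 319 to 332 CPM in NT NC and 432 to 459 in NT NDE, while the summed level of all collagens was 1485 ± 131 and 1521 ± 208 CPM.

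**Figure D5:**
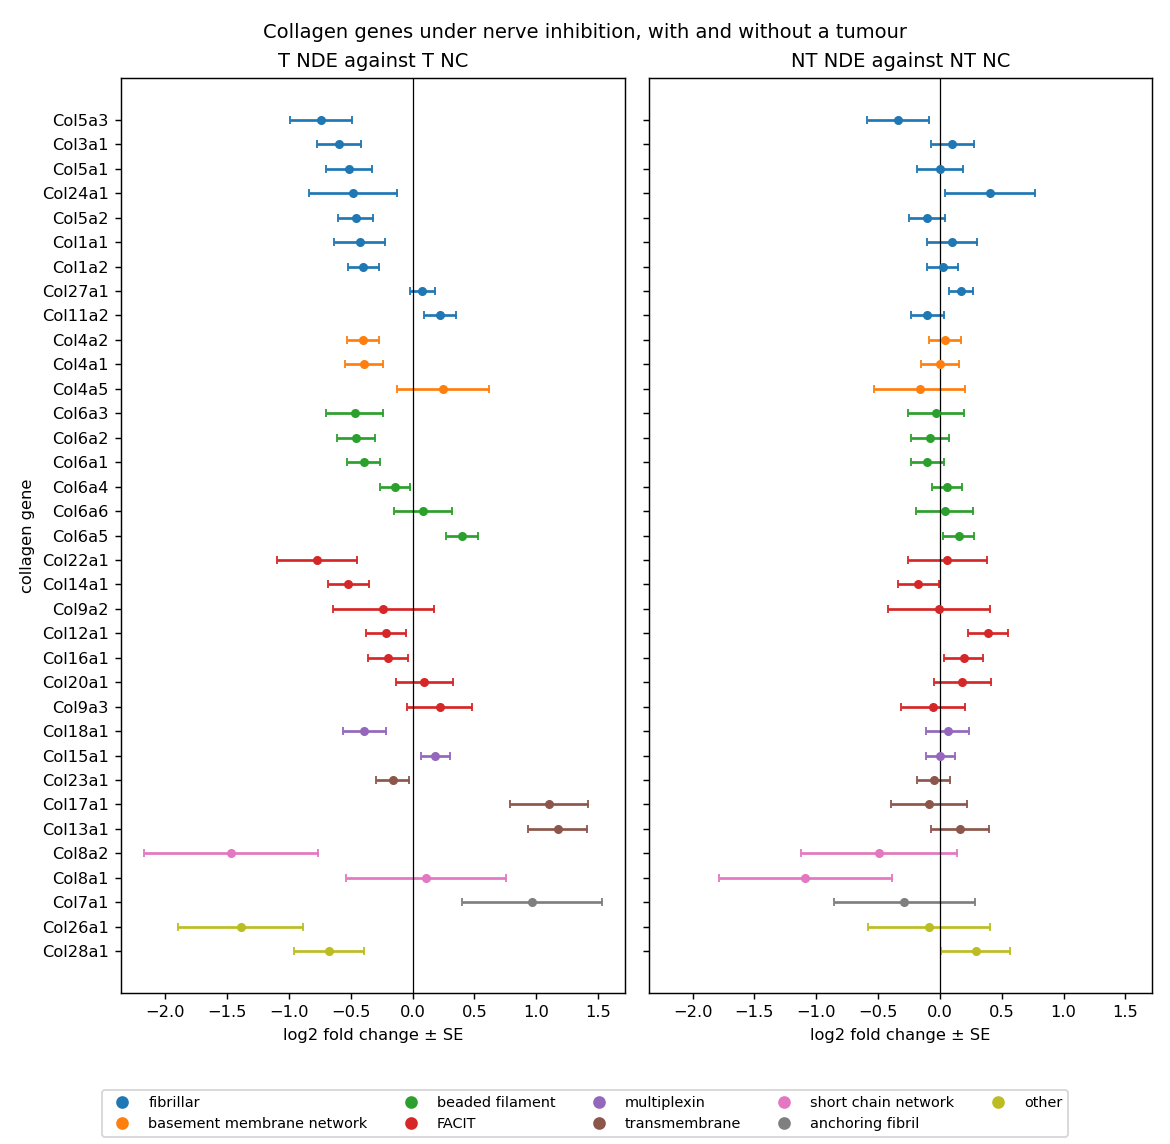
Log2 fold change (± SE) of each tested collagen gene under nerve inhibition, with a tumour on the left (T NDE against T NC) and without on the right (NT NDE against NT NC), coloured by class. With a tumour the median is -0.39 with Col13a1 and Col17a1 above 1, and without a tumour the median is 0.00.

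Whether the effect of inhibition differed with the tumour was tested as an interaction, the log2 fold change under inhibition with the tumour less that without it. The 3 libraries with salivary RNA all lie in NT NC and T NDE, the groups that raise this value. Of the salivary markers, 8 of 8 tested genes were above 0 (median 17.3). How far tissue carried along with them entered the collagen values was not tested. The median over collagens was -0.36 (0.01 over all genes), with 25 genes below 0 and 10 above. No collagen passed the adjusted threshold in edgeR (smallest adjusted p 0.637) or in DESeq2. At an unadjusted p under 0.05, 5 were below 0 (background 3.95%) and 2 above (background 3.16%). Those above were Col13a1 (1.01 ± 0.33) and Col17a1 (1.19 ± 0.44), and those below were Col3a1 (-0.69 ± 0.25), Col12a1 (-0.60 ± 0.23), Col28a1 (-0.96 ± 0.40), Col4a2 (-0.44 ± 0.18) and Col1a2 (-0.42 ± 0.18, all log2 ± SE). With the salivary libraries left out, which keeps 1 NT NC library, Col12a1 had -0.85 ± 0.19 and Col18a1 -0.77 ± 0.29. The values then were -0.71 ± 0.31 for Col3a1, -0.47 ± 0.26 for Col1a2, -0.69 ± 0.50 for Col28a1 and -0.26 ± 0.24 for Col4a2. Col13a1 had 0.94 ± 0.43 and Col17a1 1.56 ± 0.47. Of all these genes only Col12a1 had a smaller SE than with all libraries. The count of 5 was not steady: it was 0 when T NC replicate 1 was left out, 10 for NT NDE replicate 1, 9 for T NC replicate 2 and 8 for T NDE replicate 3. It was 2 when NT NC replicate 2 or NT NDE replicate 3 was left out. It was 3 for NT NC replicate 3, NT NDE replicate 2, T NDE replicate 1 or T NDE replicate 2. The median was -0.20 when T NC replicate 1 was left out.

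The tumour under nerve inhibition, T NDE against NT NDE, gave a median of -0.20 (0.00 over all genes), with 28 collagens lower and 7 higher. In edgeR 0 collagens passed the adjusted threshold (smallest adjusted p 1.00) among 1 gene called in all (0.00578%), and DESeq2 called 0 collagens. At an unadjusted p under 0.05, 3 were lower (background 2.05%) and 0 higher (background 1.66%). The 3 were Col6a5 (-0.37 ± 0.13), Col27a1 (-0.25 ± 0.10) and Col4a2 (-0.29 ± 0.13, log2 ± SE). Col6a5 was at 26.0, 28.1 and 24.7 CPM in NT NDE and 19.3, 19.3 and 22.4 in T NDE, without overlap. Col27a1 was at 34.4, 33.1 and 31.1 CPM in NT NDE and 29.0, 24.1 and 30.1 in T NDE, also without overlap. In all, 4 collagens did not overlap downward (background 4.33%) and 0 upward (background 4.1%). Without the salivary libraries, which leaves 2 T NDE libraries, 17 did not overlap downward (background 12.7%) and 0 upward (background 10.1%). In that fit 6 were lower (4.54% of all its genes) and 0 higher at an unadjusted p under 0.05. The 6 were Col12a1 (-0.53 ± 0.11), Col6a5, Col27a1, Col18a1 (-0.40 ± 0.18), Col4a5 (-0.63 ± 0.29) and Col8a2 (-1.91 ± 0.89), and Col4a5 had 0.07 ± 0.37 with all libraries.

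Col6a5 was lower with the tumour under either nerve status. Averaged over nerve status, T against NT gave -0.49 ± 0.09 for Col6a5 (SE, 6 libraries against 6; unadjusted p = 8.33e-05, Benjamini-Hochberg adjusted p = 0.511, edgeR), and DESeq2 gave an adjusted p of 0.00394. Without T NDE replicate 3 the edgeR adjusted p was 0.0418, the lowest of the 12 fits that each left out 1 library. Without the 3 salivary libraries, which keeps 1 NT NC library, the log2 fold change of Col6a5 was -0.42. In this averaged comparison 2 collagens were lower at an unadjusted p under 0.05 (background 2.24%), the other being Col27a1 at -0.20 ± 0.07, and 0 were higher (background 2.25%). No collagen passed the adjusted threshold in edgeR. Col6a5 was the only collagen called by DESeq2, whose count over all genes is given in the last section. In the same fit without the salivary libraries Col4a5 had -0.67 ± 0.22 and Col17a1 -0.59 ± 0.24. With all libraries they had -0.13 ± 0.26 and -0.26 ± 0.22.

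Averaged over tumour status, NDE against NC gave 5 collagens lower (background 4.73%) and 3 higher (background 4.46%) at an unadjusted p under 0.05, with a median of -0.16. Over all genes 17 passed the adjusted threshold (0.0983%), and 0 of these were collagens in edgeR or DESeq2 (smallest edgeR adjusted p 0.251). Col13a1 was highest at 0.67 ± 0.17, and Col5a3 had -0.54 ± 0.18 (log2 ± SE). Col17a1, another of the 3 higher genes, had 0.51 ± 0.22 with all libraries and 0.16 ± 0.24 without the salivary ones. The count of 5 was 3 without NT NC replicate 1, T NC replicate 1, NT NDE replicate 1 or T NDE replicate 1. It was 9 without NT NC replicate 3, 12 without NT NDE replicate 3, and 11 without T NC replicate 2 or T NDE replicate 3.

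The genes that make, process and break down collagen were read in 5 lists, and 0 of their 54 tested members passed the adjusted threshold of edgeR in any of the 7 comparisons. DESeq2 called Mmp9 alone, in T NC against NT NC and in the interaction. In T NDE against T NC, 10 members were lower and 1 was higher at an unadjusted p under 0.05 (backgrounds 3.07% and 2.75%). In the interaction the counts were 11 below 0 and 0 above (backgrounds 3.95% and 3.16%), and in T NC against NT NC they were 0 lower and 5 higher (backgrounds 3.23% and 4.58%). By list, the values that follow are for T NDE against T NC. Among 17 genes for hydroxylation, glycosylation and folding of the chains, 3 were lower and 1 higher, with a median log2 fold change of -0.03. P4ha3, a prolyl hydroxylase subunit, had -1.41 ± 0.45 (log2 ± SE), with T NC replicate 1 highest at 2.17 CPM. Colgalt2, which adds galactose to collagen, had 0.60 ± 0.20, with T NDE replicate 3 highest at 9.14 CPM.

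Of 11 tested genes for export and propeptide removal, 3 were lower and 0 higher in T NDE against T NC (median -0.19). Bmp1, the C-proteinase of procollagens, was at 16.0, 17.9 and 16.9 CPM in T NC and 14.8, 13.1 and 13.4 in T NDE, without overlap, with a log2 fold change of -0.30 ± 0.10. Adamts2, the N-proteinase, had -0.52 ± 0.20. Of 6 cross-linking genes 1 was lower (median -0.16): Loxl1, a lysyl oxidase, at 9.04, 4.34 and 5.15 CPM in T NC and 4.06, 3.65 and 3.48 in T NDE. Loxl2 followed at an unadjusted p of 0.0723. Among 10 collagen receptors 0 had an unadjusted p under 0.05 in either direction (median -0.03). The nearest were the inhibitory receptor Lair1 at -0.22 ± 0.10 and the integrin subunit Itga2 at 0.24 ± 0.12.

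Of 10 tested genes for degradation and its inhibition, 3 were lower in T NDE against T NC (median -0.20). Timp1, a metalloproteinase inhibitor, was at 7.65, 1.71 and 1.30 CPM in T NC and 0.603, 0.710 and 1.16 in T NDE, so that T NC replicate 1 alone was high, and its log2 fold change was -2.11 ± 0.59. Mmp9, gelatinase B, was at 27.1, 22.3 and 36.9 CPM in T NC and 20.8, 19.7 and 22.4 in T NDE, which overlapped slightly. Against NT NC (20.1, 17.8 and 15.2 CPM), Mmp9 was higher in T NC by 0.70 ± 0.17 and in NT NDE (28.2, 25.1 and 21.0 CPM) by 0.49 ± 0.17 on the log2 scale. Mmp8, the neutrophil collagenase, had log2 fold changes of 1.34 ± 0.39 and 1.02 ± 0.39 in the same comparisons. These values were not past the adjusted threshold, with edgeR adjusted p-values of 0.465 and 0.494 in T NC and 0.362 and 0.407 in NT NDE for Mmp9 and Mmp8 (Benjamini-Hochberg).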

How the data were processed

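Per gene, the authors deposited whole-number counts of reads without normalization. Total RNA was extracted with Trizol and made into mRNA libraries, per the labels' protocols. HISAT2 2.0 and build mm10 are named in the submitters' processing notes; the read counter, annotation and strand setting were not given in the sources used here. Symbols were found for 55141 of 55487 gene IDs, and the others held at most 0.0548% of a library's counts. Tests used edgeR 4.0.16 in R 4.3.3 with TMM, filterByExpr by group (minimum count 10, minimum total 15), and two-sided quasi-likelihood tests from a robust fit to all 12 libraries with 1 mean per group. P-values were Benjamini-Hochberg adjusted over all 17301 genes tested in each comparison, with a threshold of 0.05. The SE of a log2 fold change is its size divided by the square root of the F statistic. Levels are TMM-normalized CPM, and RPKM used union exon lengths from GENCODE M21, whose match to the counting annotation is not known. The script was tested on simulated data. Alternatives included DESeq2 1.42.0, other filters and leaving out libraries. Named genes were the highest gene of each class, the 10 most abundant, the other chains of those proteins, head-to-head pairs and the 2 smallest p-values per comparison or list. Further members with an unadjusted p under 0.05 were named after their values were seen. The members and lists were chosen with earlier results of these data known.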

Additional observations from a re-analysis of the deposited data

How the results depend on the processing

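The log2 fold changes of 31 gene results were recomputed under the alternatives, which gave 583 values, and each kept its direction. Most of these genes were named for their level or small p-values, so a kept direction was likely from the start. Col4a5, not among them, changed sign without the salivary libraries in T NDE against NT NDE, from 0.07 ± 0.37 to -0.63 ± 0.29. Of the 583 values, 7 were past the adjusted threshold. Those 7 were Col6a5, Col3a1 and Col13a1 with DESeq2, Col6a5 without a filter on low counts, and Col6a5 without T NDE replicate 3. The comparisons are taken here in the order tumour alone (T NC against NT NC), inhibition with a tumour (T NDE against T NC), inhibition alone (NT NDE against NT NC), tumour under inhibition (T NDE against NT NDE), interaction, inhibition averaged and tumour averaged. In this order edgeR called 0, 0, 0, 1, 0, 17 and 0 genes of all tested. DESeq2 called 40, 44, 138, 17, 43, 130 and 6. Without the salivary libraries edgeR called 7, 1, 33, 28, 3, 49 and 66. With no filter on low counts it called 4, 12, 43, 1, 1, 41 and 2, and with the 2 groups alone 37 for inhibition alone. Leaving out 1 library each gave ranges of 0 to 3, 0 to 1, 0 to 7, 0 to 4, 0 to 2, 0 to 30 and 0 to 22. Collagens called numbered 1, 2 and 1 with DESeq2 for tumour alone, inhibition with a tumour and tumour averaged, and 1 in the first and the last of these without a filter. Leaving out 1 library gave 0 to 0 collagens called in 6 comparisons and 0 to 1 for tumour averaged.

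The fit with no filter also held the collagens with too few reads for the main test. With no filter the median collagen log2 fold change was -0.19 for inhibition with a tumour and -0.22 in the interaction. Its leave-one-out ranges, in the order above, were 0.02 to 0.18, -0.45 to -0.22, -0.07 to 0.05, -0.27 to -0.11, -0.41 to -0.20, -0.18 to -0.10 and -0.11 to 0.01. Collagens lower at an unadjusted p under 0.05 ranged from 6 to 16 for inhibition with a tumour, 0 to 10 in the interaction and 3 to 12 for inhibition averaged. DESeq2 gave 8 in the interaction and 11 for inhibition averaged. Neither count is given without the salivary libraries, where 1 NT NC library is left. Without those libraries, collagens lower without overlap numbered 9, 18, 9 and 17 in the first 4 comparisons, against 3, 8, 0 and 4 with all libraries (backgrounds 27.7%, 10.7%, 28.1% and 12.7% against 7.23%, 4.6%, 9.18% and 4.33%). The cause of these shifts was not tested. These counts of collagens under an unadjusted p, and the non-overlap count, were added after the data were seen.

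Whether replicate numbers pair the libraries was not settled. Of 12 correlations of same-numbered deviations, 0 were over 0.1. Yet 7 of 12 libraries correlated best with a library of their own number in another group, and no chance level was worked out for that count. With the replicate number as a block, 0 collagens were called in any comparison, the median for inhibition with a tumour was -0.39, and the calls over all genes became 3 for inhibition alone, 3 for tumour under inhibition, 1 in the interaction and 1 for inhibition averaged. With 3 libraries a group, a comparison that misses the threshold does not show that levels were alike, and genes below about 1 CPM rest on few counts.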
